A study of Homo sapiens with 18 samples.

Results

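WM164 is a human melanoma cell line that still carries the pigment cell program, and the data described here are the 6 RNA sequencing libraries made from it, out of 18 in the series. They were taken by their labels: 3 libraries from cells overexpressing MAFG and 3 from cells overexpressing GFP. The other 12 libraries hold the same contrast in the melanoma lines SKMel28 and A375, with 3 libraries per condition. Per the study's methods, both conditions were made by lentiviral transduction with an EF1α promoter vector under blasticidin selection, the control carrying GFP and the other a tagged MAFG open reading frame, and all cells grew in RPMI with 5% serum. The response of WM164 was read here across gene families of the cell surface, matrix, metabolism, signaling, nucleus and organelles. Nothing in the labels says that the 3 libraries of a condition came from separate cultures, so p-values measure only the spread between these libraries, which may be technical.

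MAFG is a small MAF transcription factor. It has a DNA-binding and leucine zipper region but no transactivation domain of its own, and acts as a dimer with itself or with CNC-family partners such as NRF2 or BACH1. These dimers read a DNA element whose core resembles the site of the AP-1 factors. Melanocytes descend from the neural crest, an embryonic population that also gives rise to peripheral neurons, glia and connective tissue of the face, so melanoma cells can express genes named for neural or connective tissue functions.

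The libraries held between 26910220 and 34848421 counts over genes, and mitochondrial genes took 27.1% to 27.4% of them in the GFP libraries and 23.1% to 25.9% in the MAFG libraries. Levels are given as CPM, counts per 1000000 counts of the library, after scaling among the 6 libraries. Each comparison is a log2 fold change of MAFG over GFP with its standard error (SE), and a gene is called when the quasi-likelihood test of edgeR gave an adjusted p no larger than 0.05 and a change of more than 2-fold. MAFG itself stood at 24.2, 27.1 and 21.7 CPM in the GFP libraries and at 52.9, 52.4 and 45 CPM in the MAFG libraries, without overlap. It rose by a log2 fold change of 1.04 (SE 0.09, adjusted p = 6.37e-08), and this dropped to 0.96 without GFP replicate 3 and to 1.0 without MAFG replicate 1, at or under the 2-fold limit. In the deposited TPM values, which correct for gene length, MAFG had a mean of 2.89 with GFP and 24.5 with MAFG. That gap is wider than in the counts, and its cause was not tested. The transgene and the endogenous gene cannot be told apart in these counts, and MAFG overlaps SIRT7 on the same strand.

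MAFG overexpression moved 1105 of 15919 tested genes past the call, 6.94% of them. Of these, 786 (4.94%) were higher and 319 (2.0%) lower, and in 1091 the 3 MAFG libraries lay wholly apart from the 3 GFP libraries, against 43.4% of all tested genes. Without a limit on the fold change, 2580 genes (16.2%) were higher and 2485 (15.6%) lower with an adjusted p up to 0.05. The shares depended on the level of expression. Among genes with a mean under 1 CPM, 10.2% were called higher and 3.63% lower, against 7.56% and 3.03% at 1 to 10 CPM, 2.12% and 1.11% at 10 to 100 CPM and 2.36% and 0.572% above 100 CPM. On the deposited TPM scale, with limma on log2(TPM + 1), the median of all genes shifted by 0.14 and the split was 314 higher to 70 lower. The calls covered 898 protein-coding genes (5.10% of those tested higher, 1.90% lower) and 151 long noncoding RNAs (4.66% higher, 3.16% lower).

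The 6 genes with the smallest adjusted p in each direction came from different functional groups. H19, an imprinted long noncoding RNA of fetal tissue, stood at 91.2, 81.6 and 81.8 CPM in the GFP libraries and at 2483, 2502 and 2387 CPM in the MAFG libraries. It rose 28.9-fold (log2 fold change 4.86, SE 0.07, adjusted p = 1.12e-18). ST8SIA5, a sialyltransferase that builds polysialylated gangliosides, went from 0.609, 0.813 and 0.672 CPM to 92.8, 101 and 101 CPM, 139-fold (SE of the log2 value 0.11). COL12A1, a chain of the fibril-associated collagen XII, went from 1.35, 1.69 and 1.27 CPM to 60.5, 53.8 and 55.4 CPM, 39-fold. In all 3 genes the groups were separated by more than 10 times the highest GFP value.

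TRAF1, an adaptor of tumor necrosis factor receptors, stood at 8.93, 8.98 and 8.44 CPM with GFP and 109, 115 and 113 CPM with MAFG, 12.8-fold higher (adjusted p = 1.98e-16). ALDH1A3, which makes retinoic acid from retinal, went from 148, 144 and 151 CPM to 847, 841 and 888 CPM, 5.81-fold. ADAMTS9, a secreted protease that cleaves proteoglycans, went from 127, 134 and 131 CPM to 710, 713 and 769 CPM, 5.58-fold. ALDH1A3, ADAMTS9 and ST8SIA5, and of the lower genes MLANA, IGSF11, QPCT and LHFPL3-AS1, overlap genes on the other strand, and whether the counting used strand is not given in the sources used here.

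In the other direction, PRDM7, a histone methyltransferase gene that is a near copy of PRDM9, fell from 33.4, 38.3 and 39.7 CPM to 3.24, 3.42 and 3.41 CPM (log2 fold change -3.47, SE 0.11, adjusted p = 5.01e-14). The long noncoding RNA LHFPL3-AS1 fell from 129, 146 and 127 CPM to 26.2, 23.1 and 20.5 CPM. IGSF11, an immunoglobulin-family adhesion protein, fell from 59.2, 65.3 and 58.9 CPM to 13.1, 14 and 13.5 CPM. That the groups do not overlap was a condition for naming these genes. QPCT, an enzyme that cyclizes N-terminal glutamine, fell from 123, 134 and 139 CPM to 35.2, 40.7 and 40 CPM. FAM167B, a gene without an established function, fell from 81.3, 91.4 and 86.6 CPM to 19.9, 21.9 and 19.7 CPM. The remaining gene of this set was the melanocyte antigen gene MLANA at a log2 fold change of -2.41 (SE 0.06), with GFP libraries at 308 CPM or more and MAFG libraries at 61.1 CPM or less.

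**Figure D1:**
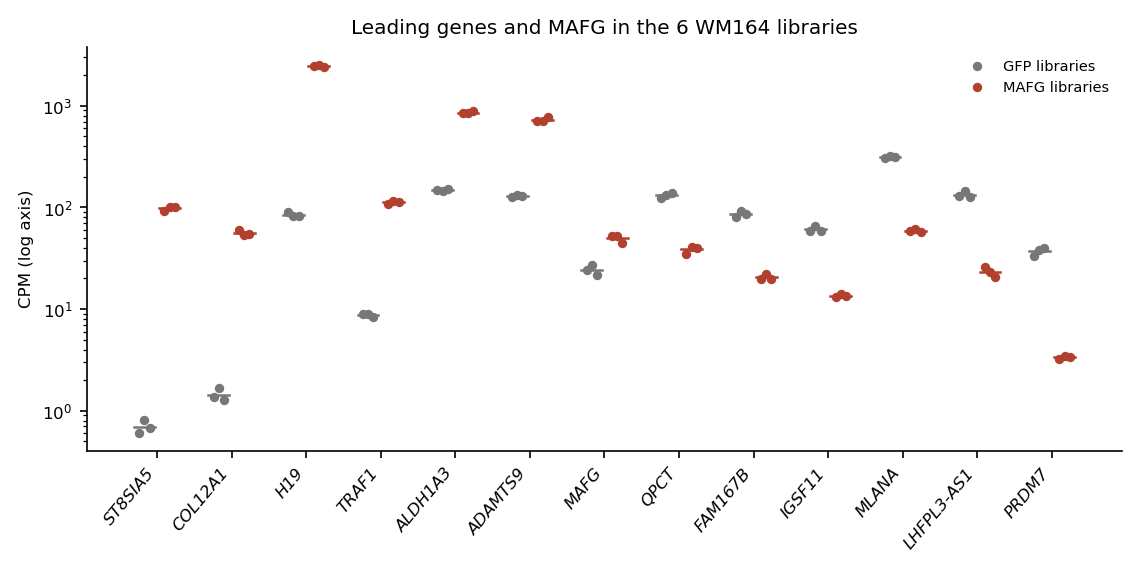
CPM on a log axis in each of the 6 WM164 libraries for MAFG and the 12 leading genes, with a horizontal mark at each condition's mean. The libraries of a condition cluster tightly, and MAFG itself shows a smaller separation than every leading gene in the plot.

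Gene families were compared by how many tested members were called, read against the shares of 4.94% higher and 2.0% lower over all tested genes. No test of a family against other genes was made. Families of secreted, matrix and membrane proteins held the largest shares of members called higher, reaching 62.1% for collagen chains and 40% for fibroblast growth factors and their receptors. Families of core cell machinery held 0 called members: the tricarboxylic acid cycle, both parts of the respiratory chain, cholesterol synthesis, histone, ribosomal protein and replication genes. HOX genes, at a median of 4.9 CPM, also held 0. For histones and HOX genes this became 1 higher without GFP replicate 1. The families also differ in expression level, with a median of 4.81 CPM for collagen chains against 63.4 CPM for nuclear-encoded respiratory chain genes.

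**Figure D2:**
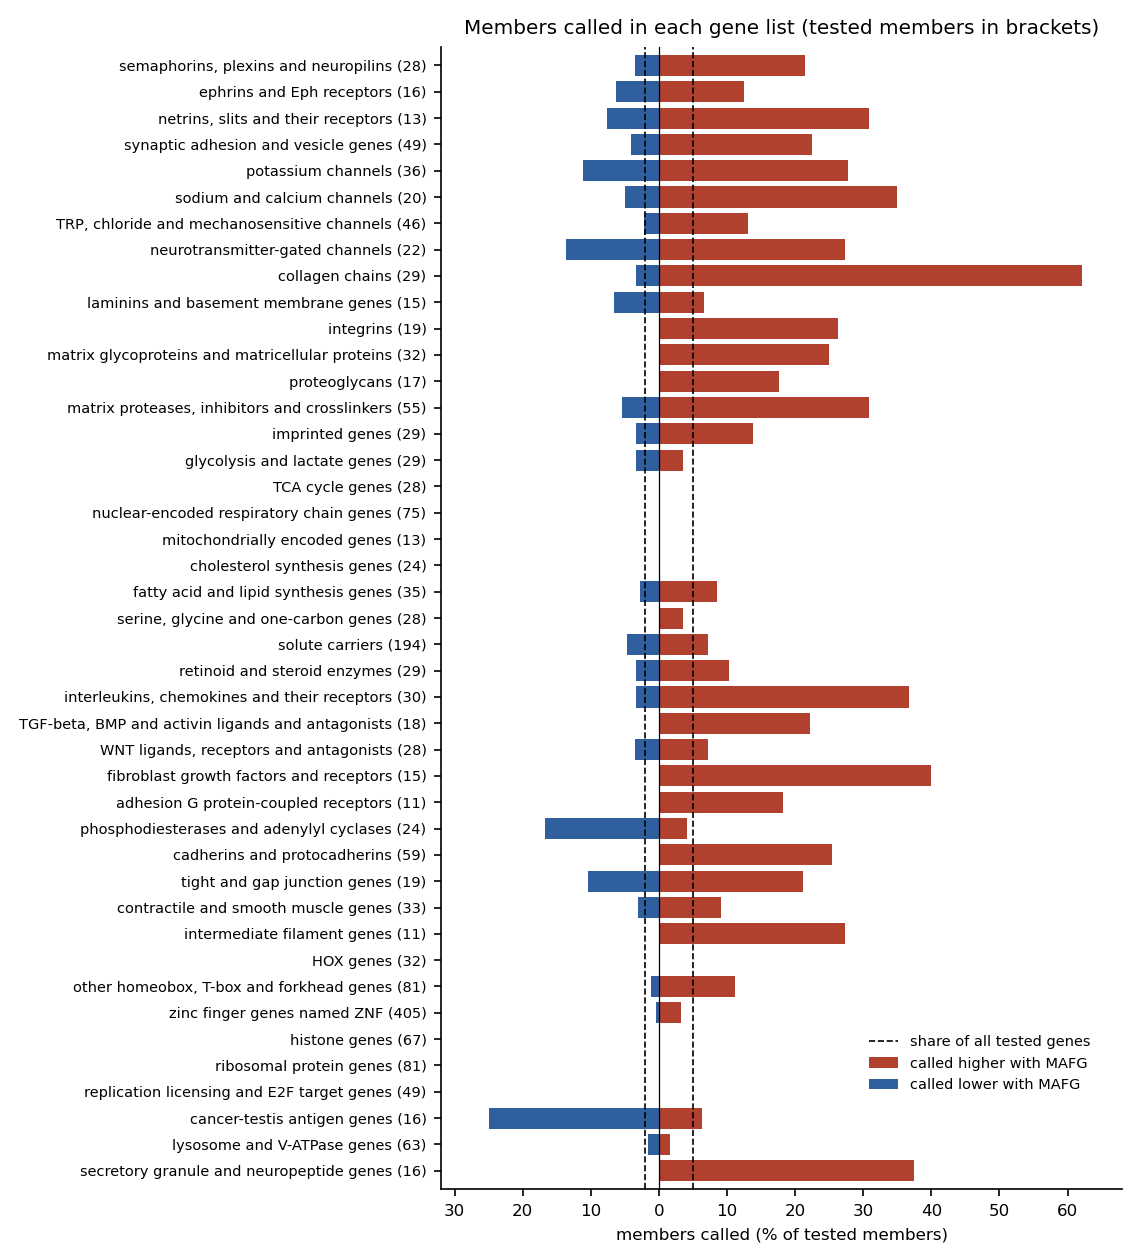
Percent of tested members called higher (right, red) or lower (left, blue) with MAFG in each gene list with 10 or more tested members, whose number stands in brackets, and dashed lines at the shares over all tested genes. Collagen chains reach 62.1% called higher, and 8 lists, which are HOX genes and families of core machinery, have no bar.

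Neural wiring genes were read in 4 families, each with calls in both directions. NRP1, the neuropilin that holds class 3 semaphorins and VEGF, stood at 4.19, 4.19 and 4.67 CPM with GFP and 46.4, 47.1 and 48.1 CPM with MAFG, and rose by 3.44 on the log2 scale (SE 0.09, adjusted p = 7.92e-15). Its signaling partner PLXNA4, a plexin, went from 2.5, 2.19 and 3.21 CPM to 28.6, 29.3 and 30.5 CPM (log2 fold change 3.49, SE 0.12). The ligand SEMA3A, which repels growth cones through these receptors and was chosen after its values were seen, rose from 35.4 ± 4.86 to 111 ± 1.59 CPM (SD, n = 3). In the whole family of semaphorins, plexins and neuropilins, 6 of 28 tested members were called higher and 1 lower, with a median log2 fold change of 0.25 against -0.00 over all tested genes. The lower member was PLXNC1, a semaphorin 7A receptor, at -1.01 (SE 0.09). That call was lost without GFP replicate 2 (-0.94) or MAFG replicate 3 (-0.99). The family's summed level stayed at 1648 CPM with GFP and 1632 CPM with MAFG.

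Netrins, slits and their receptors split by member. ROBO2, a slit receptor, fell from 14.4, 18.6 and 14 CPM to 3.11, 2.66 and 2.3 CPM (log2 fold change -2.55, SE 0.15, adjusted p = 5.16e-10). ROBO1, a receptor of the same ligands and the family's most abundant member per length, stood at 282 ± 13.2 and 238 ± 1.22 CPM, a decrease of 0.24 on the log2 scale that passed the adjusted p (0.00162) but not the 2-fold limit. The netrin receptor UNC5C had 0.148 ± 0.225 CPM with GFP and 1.84 ± 0.328 CPM with MAFG. Of 13 tested members 4 were called higher and 1 lower, and only 2 were higher without GFP replicate 3 or MAFG replicate 1. Another of the 4, UNC5B (log2 fold change 1.25, adjusted p = 0.0214), missed the adjusted p without GFP replicate 1, GFP replicate 3 or MAFG replicate 2 (0.0531 to 0.127). The family's median was 0.14, and turned to -0.06 on the log2(TPM + 1) scale, where that of all genes was 0.14.

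Of 16 tested ephrins and Eph receptors, 2 were called higher and 1 lower. EPHB2, a receptor of B-type ephrins, rose from 6.55 ± 0.397 to 18.6 ± 0.473 CPM, and EPHA5 fell from 3.41 ± 0.335 to 1.07 ± 0.167 CPM. EPHA3, the family's most abundant member per length, rose 1.71-fold from 346 ± 27.9 to 591 ± 28 CPM (adjusted p = 2.12e-08), under the limit for a call. Of 49 tested synaptic adhesion and vesicle genes, 11 were called higher and 2 lower, with a median of 0.34. UNC13A, which primes synaptic vesicles and was chosen after its values were seen, rose from 8.19 ± 0.925 to 44 ± 4.47 CPM. The vesicle protein gene SV2B had 0 counts in all 3 GFP libraries and 1.17 ± 0.278 CPM with MAFG. This makes it at least 11.4-fold higher against a floor of 3 counts per library. The calcium sensor gene SYT5 (1.33 ± 0.338 to 0.362 ± 0.11 CPM) and the active zone gene RIMS3 (3.14 ± 0.266 to 1.34 ± 0.264 CPM) fell.

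Ion channel genes were called in both directions. KCNN2, a small-conductance calcium-activated potassium channel, fell from 17.5, 18.7 and 18.9 CPM to 3.31, 2.17 and 3.23 CPM (log2 fold change -2.65, SE 0.14, adjusted p = 9.00e-11). KCNAB2, a potassium channel beta subunit, fell from 67.4, 70.8 and 62.1 CPM to 27.9, 28.7 and 22.9 CPM. KCNMA1, the large-conductance BK channel, rose from 9.98 ± 0.661 to 51.7 ± 5.13 CPM and was chosen after its values were seen. KCND3, which carries a transient outward current, rose from 1.39, 1.03 and 2.09 CPM to 9.3, 11 and 7.16 CPM. KCNN2 and KCNMA1, both calcium-activated channels, thus moved oppositely, with KCNMA1 picked for its values. Over the family 10 of 36 tested potassium channel genes were called higher and 4 lower (median 0.47).

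Of 20 tested sodium and calcium channel genes, 7 were called higher and 1 lower (2 lower without MAFG replicate 2), at a median level of 1.47 CPM. CACNA2D3, an auxiliary calcium channel subunit, had 0 counts in the 3 GFP libraries against 103, 100 and 98 counts in the MAFG libraries, at least 31.8-fold higher against the floor of 3 counts per library. CACNB4, a beta subunit, fell from 6.22, 8.41 and 6.61 CPM to 0.761, 1.43 and 1.22 CPM (log2 fold change -2.63, SE 0.23). Among TRP, chloride and mechanosensitive channels 6 of 46 tested members were called higher and 1 lower. On the adjusted p alone 10 were higher and 12 lower, against 16.2% and 15.6% of all tested genes. Without GFP replicate 1 or MAFG replicate 1, 2 of these channels were called lower. Their median of -0.06 became 0.10, 0.08 or 0.04 on the TPM scales, where that of all genes was 0.16, 0.14 or 0.04. The family thus did not rise above all genes on these scales. TRPM1, the melanocyte channel also known as melastatin, fell from 34, 43.3 and 34.5 CPM to 10, 8.84 and 8.88 CPM (log2 fold change -2.01, SE 0.11). TRPM8, the cold and menthol receptor, chosen after its values were seen, rose from 40.4 ± 3.95 to 88.7 ± 1.15 CPM. These 2 members of the same subfamily changed in opposite directions past 2-fold.

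Channels gated by neurotransmitters were called higher for 6 and lower for 3 of 22 tested members, at a median of 1.3 CPM. The family median of 0.48 became -0.15 when genes with fewer than 10 counts in any library were dropped. GABRA5, a GABA-A receptor subunit, fell from 10.3 ± 1.41 to 3.23 ± 0.311 CPM. GRIK2, a kainate receptor subunit and the most abundant member per length, rose 1.57-fold from 61.6 ± 7.14 to 97 ± 10.7 CPM, under the limit for a call. For low channel genes such as GRIK3, another kainate receptor subunit (0.168 ± 0.215 to 2.15 ± 0.246 CPM), the size of the fitted fold change depended on which GFP library was included. With limma on log2(TPM + 1), 2 potassium, 0 sodium or calcium and 0 neurotransmitter-gated channel genes were called higher.

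Collagen chains were the family with the largest share called. Of 29 tested chains 18 were called higher and 1 lower, the median log2 fold change was 1.14, and the summed level of the family went from 463, 449 and 407 CPM to 931, 879 and 853 CPM. The chains called higher came from fibrillar, network and fibril-associated types. On the log2(TPM + 1) scale 7 chains were called higher. COL9A3, a chain of the cartilage collagen IX and the family's most abundant member per length, rose from 116, 99.2 and 101 CPM to 234, 221 and 216 CPM (log2 fold change 1.09, SE 0.06). COL19A1, chosen after its values were seen, rose from 48.4 ± 0.69 to 112 ± 5.06 CPM. COL6A2, chosen in the same way, rose from 57.7 ± 4.66 to 121 ± 10.8 CPM, and lost its call without MAFG replicate 1 (1.0). COL4A2, a basement membrane chain, was counted in GFP libraries at 0.0225 ± 0.039 CPM and reached 1.01 ± 0.126 CPM with MAFG, at least 9.82-fold higher against the floor. The lower chain was COL6A3 (1.73 ± 0.176 to 0.789 ± 0.255 CPM, adjusted p = 0.0253), whose adjusted p was 0.065 to 0.0841 without GFP replicate 1, GFP replicate 2, MAFG replicate 1 or MAFG replicate 2.

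Receptors of collagen also rose. ITGA1, the integrin alpha subunit that binds collagen IV, stood at 13.1, 13.7 and 12 CPM with GFP and 93.1, 86.8 and 87.8 CPM with MAFG, 6.89-fold higher (adjusted p = 8.50e-15). ITGA11, the alpha subunit that binds fibrillar collagen, went from 1.22, 1.19 and 1.08 CPM to 15.1, 14.9 and 15.9 CPM, 13.1-fold. ITGA10, another collagen receptor subunit, rose from 9.83 ± 0.847 to 46.5 ± 3.15 CPM. ITGA9 rose from 6.13 ± 1.14 to 33 ± 1.23 CPM, and ITGA4, a subunit that binds fibronectin and VCAM1, from 91.8 ± 1.29 to 209 ± 7.3 CPM. The last 3 were chosen after their values were seen, and they complete the 5 of 19 tested integrin genes called higher. No integrin was called lower, and the median was 0.56. The shared beta subunit ITGB1 rose only 1.16-fold, from 335 ± 17.7 to 389 ± 7.09 CPM (adjusted p = 0.00439).

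Other matrix families rose in part. FN1, fibronectin, stood at 8722, 9355 and 8489 CPM with GFP and 14665, 14853 and 14657 CPM with MAFG, and it rose 1.66-fold without reaching a call (log2 fold change 0.73, SE 0.05, adjusted p = 7.98e-09). Among 32 tested matrix glycoproteins and matricellular proteins, 8 were called higher and 0 lower, and 1 was called lower without MAFG replicate 3. CCN2, or connective tissue growth factor, was chosen after its values were seen and rose from 17.2 ± 0.662 to 55.6 ± 2.62 CPM. FBLN1, a fibulin, rose from 0.714 ± 0.116 to 2.93 ± 0.287 CPM, and MATN3, a matrilin, from 0.384 ± 0.0706 to 2.24 ± 0.68 CPM. SDC2, a heparan sulfate proteoglycan of the cell surface, rose from 10.2, 11.6 and 12 CPM to 80.9, 85.5 and 79.8 CPM (log2 fold change 2.86, SE 0.08), 1 of 3 proteoglycans called higher among 17 tested. In that family 0 were called lower, against 1 or 2 without GFP replicate 1, GFP replicate 3, MAFG replicate 2 or MAFG replicate 3.

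Laminins and basement membrane genes gave 1 call in each direction among 15 tested. FREM2, a basement membrane protein of the embryonic epidermis, rose from 24, 27.1 and 22.2 CPM to 77.1, 72.3 and 69.8 CPM. LAMA2, the laminin alpha chain of muscle and nerve basement membranes, fell from 22, 26.5 and 25.4 CPM to 7.61, 6.15 and 7.95 CPM (log2 fold change -1.76, SE 0.11). Without GFP replicate 1, GFP replicate 2, GFP replicate 3 or MAFG replicate 1, 2 members were called higher. Among 55 tested matrix proteases, their inhibitors and crosslinking enzymes, 17 were called higher and 3 lower (median 0.50). LOXL2, a collagen crosslinking oxidase, rose from 42.5 ± 2.11 to 207 ± 9.93 CPM, and PLAT, the tissue plasminogen activator, from 154 ± 5.86 to 437 ± 20.8 CPM. Both were chosen after their values were seen. The protease inhibitor SERPINB2 had 0.0663 ± 0.0283 CPM with GFP and 1.15 ± 0.184 CPM with MAFG, at least 11.3-fold higher against the floor. CTSK, a collagen-degrading cathepsin, fell from 21 ± 1.38 to 9.32 ± 1.45 CPM, and ADAM23, a catalytically inactive adhesion protein, from 24.9 ± 1.53 to 11.7 ± 0.472 CPM.

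The imprinted genes called higher lay in 1 stretch of chromosome 11. Of 29 tested imprinted genes, 4 were called higher and 1 lower, and all 4 stood among the 6 list members between H19 and OSBPL5 (GRCh38, chr11:1995166-3166739). Of the 23 tested members elsewhere, 0 were called higher by edgeR. IGF2, the fetal insulin-like growth factor whose gene is regulated jointly with H19, went from 2.23, 2.06 and 1.46 CPM to 60.9, 54.9 and 69.5 CPM, 31.9-fold higher (log2 fold change 5.00, SE 0.13, adjusted p = 7.43e-15). IGF2 overlaps the readthrough gene INS-IGF2 on the same strand. CDKN1C, a cell cycle inhibitor, went from 3.31, 4 and 3.96 CPM to 8.47, 8.14 and 9.11 CPM (log2 fold change 1.19, SE 0.14). PHLDA2, a growth-limiting gene of the placenta, went from 57.7, 48.5 and 56.6 CPM to 108, 107 and 122 CPM, at 1.05 (SE 0.07), and its value was 0.98 without GFP replicate 2 or MAFG replicate 3. CDKN1C and PHLDA2 were chosen after their values were seen. In each of the 4 the conditions did not overlap, which for H19 and IGF2 was a condition for naming them.

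The interval was chosen after these values were seen, so its other genes are given as a description. It held 11 tested genes, of which 9 had a positive change with an adjusted p up to 0.05 and 0 a negative one. The 9 include the 4 called genes, which were known when the interval was chosen. This count therefore cannot be set against the share over all genes. Of the 23 imprinted genes elsewhere, 9 were higher and 2 lower on the same measure. Outside the 4 called genes the changes were small. SLC22A18, a transporter gene, stood at 0.36 (SE 0.07), OSBPL5, a lipid transfer protein gene, at 0.42 (SE 0.10), and the tetraspanin gene CD81 at 0.35 (SE 0.08). NAP1L4, a histone chaperone gene, had a change of 0.13 (SE 0.07, adjusted p = 0.139). Imprinted genes at other places ranged from L3MBTL1, a chromatin reader called lower (2.89 ± 1.11 to 1.17 ± 0.0908 CPM), to SNHG14 on chromosome 15, which rose 1.38-fold from 94 ± 6.21 to 130 ± 9.95 CPM.

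**Figure D3:**
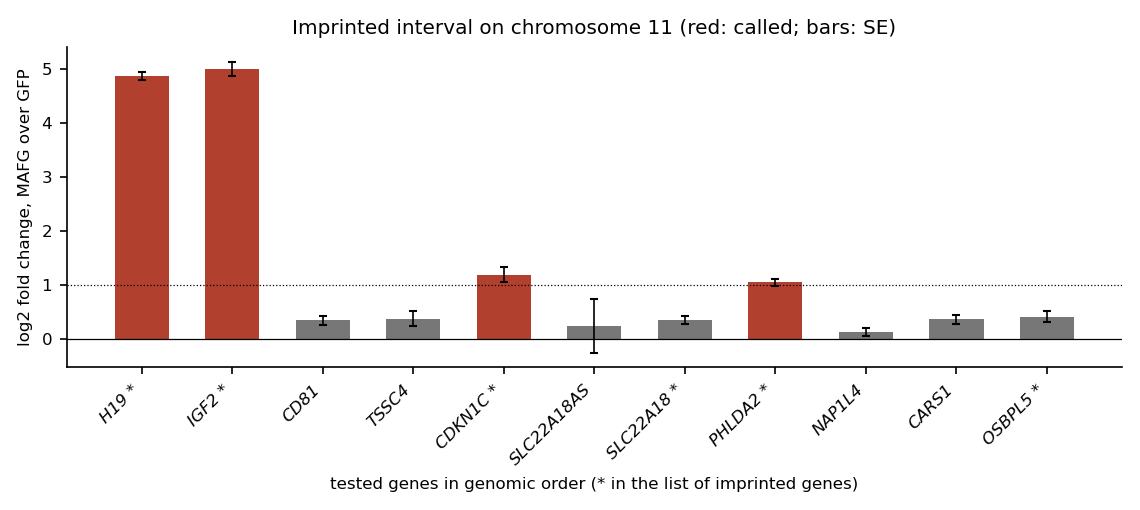
Log2 fold change of MAFG over GFP, with SE bars, for the 11 tested genes of the chromosome 11 interval in genomic order, red where called and with a dotted line at the 2-fold limit. H19 and IGF2 stand near 5, CDKN1C and PHLDA2 just above 1, and all 11 changes are positive.

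Several changed genes carry a microRNA inside their transcribed region, on the same strand. The mature sequences for 3 of these hosts, chosen after the values were seen, are shown from RefSeq (GRCh38.p14, minus strand) with the seed, bases 2 to 8, in capitals. The microRNAs themselves were not measured in these libraries, and the hosts are H19 (higher), TRPM1 (lower) and PDE2A (higher).
hsa-miR-675-5p, in H19, chr11:1996800-1996822: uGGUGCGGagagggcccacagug
hsa-miR-211-5p, in TRPM1, chr15:31065095-31065116: uUCCCUUUgucauccuucgccu
hsa-miR-139-5p, in PDE2A, chr11:72615102-72615124: uCUACAGUgcacgugucuccagu
The 3 seeds differ from each other.

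Retinoid, lipid and transport genes held a few large changes in families whose medians stayed near 0. The summed level of 29 tested retinoid and steroid genes went from 691, 682 and 689 CPM to 1439, 1445 and 1513 CPM, and most of that increase was ALDH1A3. STRA6, the cell surface receptor for retinol binding protein, was chosen after its values were seen and rose from 1.04 ± 0.403 to 4.06 ± 0.251 CPM. CYP1A1, a target of the aryl hydrocarbon receptor, rose from 0.6 ± 0.214 to 2.54 ± 0.662 CPM, and the steroid dehydrogenase HSD17B14 fell from 13 ± 1.7 to 4.81 ± 0.394 CPM. Together 3 members were called higher and 1 lower (median 0.14). FABP5, a fatty acid binding protein that also carries retinoic acid, rose from 136, 95.4 and 107 CPM to 333, 318 and 365 CPM (log2 fold change 1.59, SE 0.09). It was 1 of 3 fatty acid and lipid synthesis genes called higher among 35 tested, with 1 lower, ELOVL7, a fatty acid elongase (4.08 ± 0.43 to 1.81 ± 0.26 CPM).

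Among 194 tested solute carriers 14 were called higher and 9 lower, with a median of -0.00. SLC26A2, a sulfate transporter needed for sulfated proteoglycans, rose from 541 ± 42.4 to 1172 ± 41.1 CPM, and SLC5A3, which imports inositol, from 406 ± 7.15 to 938 ± 4.89 CPM. SLC20A1, a phosphate transporter, rose from 139 ± 6.96 to 367 ± 5.97 CPM. These 3 were chosen after their values were seen. SLC45A2, a melanosomal transporter needed for pigmentation, fell from 49.6, 58.7 and 55.9 CPM to 21, 18.4 and 15.8 CPM. SLC7A8, an amino acid exchanger, fell from 33.4, 25.6 and 26.9 CPM to 6.92, 6.88 and 7.34 CPM (log2 fold change -2.02, SE 0.11). SLC25A5, the mitochondrial ADP/ATP carrier and the most abundant carrier per length, fell by 0.65 on the log2 scale without a call (SE 0.06).

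Core energy metabolism shifted little and mostly downward. Of 75 tested nuclear-encoded respiratory chain genes, 0 were called, 39 were lower and 1 higher with an adjusted p up to 0.05 against 15.6% lower over all genes, and the median was -0.22. NDUFS7, a complex I subunit, fell from 69.8 ± 1.55 to 51 ± 1.7 CPM (log2 fold change -0.45, SE 0.06). Tricarboxylic acid cycle genes were lower for 15 of 28 tested members and higher for 1 (median -0.24), and MDH1, the cytosolic malate dehydrogenase, fell from 157, 153 and 165 CPM to 101, 105 and 114 CPM. The 13 mitochondrially encoded genes had 8 lower and 0 higher (median -0.26), with 1 higher without GFP replicate 1 and 2 without MAFG replicate 2. The 1 higher tricarboxylic acid cycle gene became 2 without GFP replicate 1 and 0 without MAFG replicate 3. On the log2(TPM + 1) scale the counts of lower respiratory chain, tricarboxylic acid cycle and mitochondrially encoded genes were 2, 0 and 0. Their family medians there were -0.06, -0.00 and -0.09, all below the median of 0.14 over all genes. Without MAFG replicate 1, 26 respiratory chain genes were lower. The single higher respiratory chain gene was lost when any library but GFP replicate 3 was left out.

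On the adjusted p alone 16.2% of all tested genes were higher and 15.6% lower. Of the 29 tested glycolysis and lactate genes, 8 were higher and 10 lower on this measure, with a median of -0.01. With limma on log2(TPM + 1) the split was 6 higher and 0 lower. The count of higher genes fell to 5 without GFP replicate 2 or GFP replicate 3. GAPDH, a glycolytic enzyme, stood at 5086 ± 101 and 5012 ± 166 CPM (adjusted p = 0.802). PFKFB4, which sets the level of fructose 2,6-bisphosphate, rose from 54.8, 44.9 and 52.2 CPM to 127, 124 and 128 CPM and was the 1 member called higher. HKDC1, a hexokinase-like gene, had 2.13 ± 0.177 CPM with GFP and 0.346 ± 0.372 CPM with MAFG and was the 1 called lower. Cholesterol synthesis genes were higher for 9 of 24 tested members and lower for 1, against the same 16.2% and 15.6%, and none passed 2-fold. In the serine, glycine and folate pathways ALDH1L2, a mitochondrial folate enzyme, rose from 8.96 ± 0.612 to 21.2 ± 2.2 CPM as the 1 call among 28 tested, with 2 calls without GFP replicate 2 or MAFG replicate 1. PHGDH, the first enzyme of serine synthesis, fell 1.44-fold, from 165, 150 and 153 CPM to 109, 108 and 108 CPM.

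**Figure D4:**
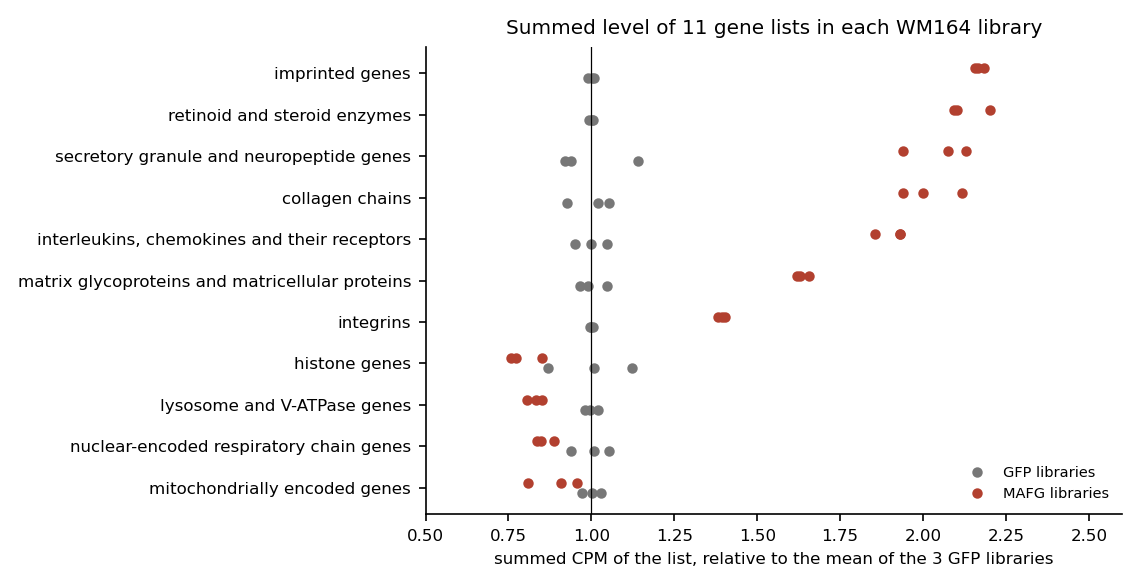
Summed CPM of 11 gene lists in each WM164 library, divided by the mean of the 3 GFP libraries. The MAFG libraries lie above 1.8 for imprinted genes, retinoid and steroid enzymes, secretory granule genes, collagen chains and interleukin genes, and below the GFP libraries for the 4 lists at the bottom. Single genes can make most of a sum's increase. H19 went from 84.9 to 2458 CPM in an imprinted sum of 2468 to 5353 CPM. VGF went from 799 to 1694 CPM in a secretory granule sum of 873 to 1787 CPM, and ALDH1A3 from 148 to 858 CPM in a retinoid sum of 687 to 1466 CPM.

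Of 30 tested interleukin, chemokine and receptor genes 11 were called higher and 1 lower, and 2 were lower without GFP replicate 3 or MAFG replicate 2. IL6ST, the gp130 receptor subunit that interleukin 6, LIF and related cytokines share, rose from 185 ± 12.5 to 622 ± 22 CPM. LIFR, its partner for LIF, rose from 30.3 ± 0.776 to 113 ± 2.46 CPM, and IL1R1, the signaling interleukin 1 receptor, from 6.56 ± 0.573 to 33.2 ± 0.433 CPM. These were chosen after their values were seen. IL1RAP, the accessory chain of IL1R1, rose from 132, 140 and 136 CPM to 281, 287 and 277 CPM (log2 fold change 1.05, SE 0.05, adjusted p = 3.77e-11). The ligand IL11, which also acts through gp130, had 0.0812 ± 0.0847 CPM with GFP and 1.06 ± 0.411 CPM with MAFG. The lower one was the chemokine CCL20, at 1.61 ± 0.132 and 0.482 ± 0.192 CPM.

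Ligands of the TGF-beta superfamily and their antagonists were called higher for 4 of 18 tested members and lower for 0, with a median of 0.43. INHBA, the subunit of activin A, went from 1.28, 1.41 and 1.42 CPM to 28.6, 26.6 and 29.4 CPM, 20.5-fold higher (adjusted p = 1.36e-14). FST, follistatin, which binds and blocks activin, went from 0.372, 0.375 and 0.485 CPM to 11.2, 8.63 and 11.6 CPM, 25.4-fold higher (log2 fold change 4.67, SE 0.22). A ligand and its inhibitor thus rose side by side. BMP7, a bone morphogenetic protein chosen after its values were seen, rose from 6.01 ± 0.648 to 19.7 ± 0.751 CPM. GDF15, a stress-induced ligand and the family's most abundant member per length, fell without a call from 70.4 ± 7.28 to 42.6 ± 2.79 CPM.

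Fibroblast growth factor genes were called higher for 6 of 15 tested members, with 0 lower and a median of 0.74. FGFRL1, a receptor without a kinase domain, rose from 30.1, 23.5 and 25.7 CPM to 84.5, 86.2 and 93.4 CPM, while the kinase receptor FGFR1 rose 1.26-fold from 61.8 ± 3.11 to 78 ± 2.68 CPM. Of 28 tested WNT pathway members 2 were called higher and 1 lower. ROR2, a receptor of WNT5A, had 0.135, 0.0626 and 0.747 CPM with GFP and 4.5, 5.49 and 4.13 CPM with MAFG. FZD8, a frizzled receptor, fell by 1.09 on the log2 scale (SE 0.19), and by 0.92 without MAFG replicate 3. LEF1, the nuclear effector of the pathway, rose 1.39-fold from 218 ± 5.85 to 303 ± 12 CPM.

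Of 24 tested phosphodiesterases and adenylyl cyclases, 1 was called higher and 4 lower, and the median was 0.04. On the adjusted p alone 6 were higher and 8 lower, against 16.2% and 15.6% of all tested genes. ADCY1, a calcium-stimulated adenylyl cyclase, fell from 79.2, 94.7 and 86.4 CPM to 36.6, 35.9 and 34.6 CPM (log2 fold change -1.28, SE 0.07, adjusted p = 1.68e-10). ADCY2, another cyclase, fell from 16.5, 24.6 and 18.7 CPM to 6.12, 5.73 and 5.85 CPM. PDE2A, a phosphodiesterase stimulated by cGMP, rose from 0.913, 0.375 and 0.485 CPM to 8.01, 7.93 and 8.82 CPM. The count of lower members was 2 without GFP replicate 1, MAFG replicate 1, MAFG replicate 2 or MAFG replicate 3, and that of higher members was 2 without GFP replicate 3 or MAFG replicate 3. Of 11 tested adhesion G protein-coupled receptors 2 were called higher and 0 lower. ADGRB1, an engulfment receptor also known as BAI1, rose from 14.8, 13.1 and 10.9 CPM to 52, 52.3 and 46.5 CPM. The median of these receptors was -0.14, and turned to 0.04 on the log2(TPM + 1) scale, where that of all genes was 0.14.

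Because MAFG dimers read an element that holds an AP-1 type core, promoters were searched for the letters TGANTCA, which read the same on both strands. The windows were the RefSeq ones from 250 bases before to 50 bases after a gene's start, held for 11135 of the 15919 tested genes. The letters stood in 4.34% of these windows, in 7.59% of the 514 windows of genes called higher and in 10% of the 209 of genes called lower. The part site TGCTGA, searched on both strands, stood in 12.5%, 16% and 16.7% of them, and the E-box CACGTG in 10.1%, 8.17% and 9.09%. TCATGTG stood in 1.72%, 1.95% and 3.83%, and TGACNNNGC in 15.1%, 11.5% and 12%, both also searched on both strands. These shares are descriptions without a test. Of 122 called genes named by a fixed rule, 96 had a window and 12 held TGANTCA before the start. For 3 of them, whose stretch lies outside the annotated gene, the sequence is printed 5′ to 3′ along the gene with the match in capitals (GRCh38.p14), to show how the matches sit in genes that moved either way.
IL11, higher, minus strand, chr19:55370526-55370586: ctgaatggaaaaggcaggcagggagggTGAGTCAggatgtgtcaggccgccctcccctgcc
FST, higher, plus strand, chr5:53480442-53480502: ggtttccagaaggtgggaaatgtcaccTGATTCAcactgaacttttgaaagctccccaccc
CACNB4, lower, minus strand, chr2:152099372-152099417: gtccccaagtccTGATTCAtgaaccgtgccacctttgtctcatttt
The matches begin 96, 160 and 238 bases before the respective RefSeq starts.

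Genes of cell contact and shape gave some of the steepest increases. GJA1, the gap junction protein connexin 43, had 2, 6 and 0 counts in the GFP libraries and 689, 662 and 667 counts in the MAFG libraries, or 22.8, 23.1 and 19.4 CPM (adjusted p = 2.31e-13). GJA5, connexin 40, chosen after its values were seen, rose from 4.85 ± 1.06 to 22.6 ± 1.76 CPM. OCLN, occludin of tight junctions, rose from 0.762 ± 0.345 to 4.28 ± 0.157 CPM, whereas the junctional adhesion gene F11R fell from 9.09 ± 1.14 to 3.41 ± 0.0811 CPM and PANX2, a pannexin channel, from 6.79 ± 0.95 to 2.09 ± 0.301 CPM. In all 4 of 19 tested tight and gap junction genes were called higher and 2 lower.

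Of 59 tested cadherins and protocadherins, 15 were called higher and 0 lower, 51 had a positive change and the median was 0.60, at a median level of 3.23 CPM. Without GFP replicate 2, 1 was called lower. PCDH18, chosen after its values were seen, rose from 17 ± 0.667 to 54.8 ± 3.66 CPM. Protocadherins of the clusters on chromosome 5 share similar sequence, and PCDHGC3 shares its exons with the other gamma genes. It stood at 146 ± 13.8 and 150 ± 1.2 CPM (adjusted p = 0.703). NES, the intermediate filament protein nestin of neural progenitors, rose from 1.59, 1.75 and 1.94 CPM to 13.4, 16.2 and 13 CPM (log2 fold change 3.01, SE 0.15). SYNM, synemin, rose from 32.4, 31.8 and 31.9 CPM to 91, 88.9 and 91.2 CPM, while VIM, vimentin, stood at 4918 ± 172 and 4526 ± 40.7 CPM (adjusted p = 0.0865). PDLIM1, which links actin stress fibers to alpha-actinin, rose from 4.6, 4.22 and 3.73 CPM to 42.4, 40.3 and 36.5 CPM, among 3 contractile genes called higher and 1 lower of 33 tested.

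Of 32 tested HOX genes, transcription factors that set body position, 0 were called by edgeR, and the median was 0.03. With an adjusted p up to 0.05, 1 was higher and 1 lower, against 16.2% and 15.6% of all tested genes. HOXB9, the member with the smallest adjusted p, rose 1.39-fold from 22.5 ± 0.592 to 31.4 ± 1.29 CPM. Among 81 other homeobox, T-box and forkhead genes 9 were called higher and 1 lower, with 14 higher without GFP replicate 1. FOXF1, a forkhead factor of embryonic mesenchyme, rose from 1.25, 1.25 and 0.373 CPM to 10.9, 13.4 and 12.3 CPM. NKX2-2, a homeobox factor of the ventral neural tube, rose from 0.133 ± 0.0778 to 2.36 ± 0.777 CPM. PRRX1, a homeobox factor of limb mesenchyme, was chosen after its values were seen and rose from 14.9 ± 1.2 to 34.8 ± 0.402 CPM. POU3F1, a POU factor of Schwann cell development, fell from 7.55 ± 0.654 to 2.81 ± 0.168 CPM.

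Of 405 tested ZNF genes 13 were called higher (3.21%) and 2 lower (0.494%). ZNF106, its most abundant member per length, fell from 696, 796 and 748 CPM to 363, 355 and 332 CPM (log2 fold change -1.09, SE 0.06, adjusted p = 1.06e-10). Histone genes had 0 calls but 46 of 67 tested members lower and 1 higher with an adjusted p up to 0.05, and a median of -0.42. On that measure 15.6% of all tested genes were lower and 16.2% higher. H2AZ1, a variant histone, fell from 521, 450 and 556 CPM to 353, 356 and 415 CPM (log2 fold change -0.44, SE 0.08). On the log2(TPM + 1) scale 14 histone genes were lower and the median was -0.24, against 0.14 over all genes. Of 49 tested replication and E2F target genes 17 were lower and 0 higher, with 0 lower on the TPM scale and 8 without MAFG replicate 1 or 11 without GFP replicate 1. Ribosomal protein genes had 12 lower and 3 higher of 81 tested, with 6 lower without MAFG replicate 1 and 5 higher without GFP replicate 1. These 14.8% lower were near the 15.6% of all tested genes, so the count does not set the ribosomal protein genes apart. Their median of -0.04 became 0.13 on the TPM scale, against 0.14 over all genes there. Among 16 tested cancer-testis genes 1 was called higher and 4 lower. These included GAGE2A (17.2 ± 0.641 to 7.17 ± 0.0919 CPM), and GAGE copies are near identical, so reads can be split among them.

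Lysosomal and proton pump genes were lower in 36 of 63 tested members and higher in 2 with an adjusted p up to 0.05. Over all tested genes these shares were 15.6% and 16.2%. The family had a median of -0.23 and 1 call in each direction. CD63, a tetraspanin of lysosomes and melanosomes, fell from 822, 813 and 841 CPM to 551, 553 and 556 CPM (log2 fold change -0.58, SE 0.05, adjusted p = 4.31e-08). The summed level went from 7376, 7677 and 7496 CPM to 6256, 6400 and 6051 CPM. On the log2(TPM + 1) scale 3 members were lower and the median was -0.02, against 0.14 over all genes. The 2 called genes were pump subunits, and both were lost with single libraries left out. ATP6V1C2 (0.427 ± 0.202 to 1.37 ± 0.814 CPM) was not called without GFP replicate 1, GFP replicate 3 or MAFG replicate 2. ATP6V0D2 (5.04 ± 0.592 to 2.49 ± 0.402 CPM) was not called without GFP replicate 3, MAFG replicate 2 or MAFG replicate 3, and 2 genes were called lower without GFP replicate 1 or MAFG replicate 1.

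Of 16 tested secretory granule and neuropeptide genes, 6 were called higher and 0 lower, against 3 higher without GFP replicate 3 and 1 lower without GFP replicate 1 or MAFG replicate 3. On the adjusted p alone 9 were higher and 2 lower, against 16.2% and 15.6% of all tested genes, and 5 of the 16 had a negative change. VGF, a secreted neuropeptide precursor, went from 915, 733 and 749 CPM to 1722, 1763 and 1596 CPM (log2 fold change 1.08, SE 0.07, adjusted p = 2.31e-09). PCSK5, a proprotein convertase, had 1, 1 and 3 counts in the GFP libraries and 269, 232 and 275 counts in the MAFG libraries, at least 81.4-fold higher against the floor of 3 counts per library. EDN3, endothelin 3, a growth factor for melanocytes, had 0.0104 ± 0.0181 CPM with GFP and 1.53 ± 0.506 CPM with MAFG, at least 15-fold higher.

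Markers of other cell types were few among the tested genes, and their part in the results was not tested. Of 8 endothelial markers 2 were tested, and 1, the VEGF receptor gene KDR, was called higher. KDR stood at 0, 0 and 0.224 CPM with GFP and 0.43, 0.664 and 0.844 CPM with MAFG. VWF was at 0.838 CPM or less in every library. Of 11 blood cell markers 2 were tested: the lysozyme gene LYZ at 1.63 CPM or less, and CD68, which is also a lysosomal protein of many cell types and fell from 130, 121 and 116 CPM to 54.8, 51.7 and 48.5 CPM. Of 10 keratinocyte markers 3 were tested, and their summed list level was 62.8 to 63.9 CPM with GFP and 54.1 to 56.6 CPM with MAFG. All 8 melanocyte identity markers passed the filter on low counts, and the defining ones were present in both conditions. Of them 5 were called lower, and their sum was 4326 to 4629 CPM with GFP and 2314 to 2462 CPM with MAFG.

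The response of WM164 was set against that of the other lines, each with its own GFP controls. Of the 786 genes called higher in WM164, 78 (9.92%) were also called higher in SKMel28, where they made up 28.6% of the 273 higher calls, and 31 (3.94%) were in A375, 30.4% of its 102. In all, 447 of the 786 were tested in SKMel28 and 514 in A375, since the rest were too low there. Over all genes tested in each line, 1.76% were called higher and 2.98% lower in SKMel28, and 0.646% and 0.019% in A375. Among the higher genes, the shared ones (78 of 447 tested in SKMel28 and 31 of 514 in A375) thus made up more than these shares. Of the 319 lower in WM164, 255 were tested in SKMel28 and 163 in A375. Among the 319, 55 (17.2%) were lower in SKMel28, 11.9% of its 463, and 0 were among the 3 lower calls of A375. Opposite calls were found too. Of the 447, 33 were lower in SKMel28, against 2.98% of all genes tested there. Of the 255, 6 were higher in SKMel28, against 1.76%. The overlap with SKMel28 thus ran in both directions, while in A375 0 calls were opposite. In 1 model of all 18 libraries, the response of WM164 differed from that of SKMel28 past 2-fold for 957 of 18767 genes (5.10%) and from that of A375 for 823 (4.39%).

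The leading genes were chosen on their WM164 values, which these differences share. H19 rose in SKMel28 by 1.46 (SE 0.09), less than in WM164 by 3.39 (SE 0.12, adjusted p = 1.05e-13), and its change in A375 was -0.11 (SE 0.14). COL12A1 rose in SKMel28 by 2.04 (SE 0.12) and stood at -0.10 (SE 0.12) in A375. ALDH1A3 ran opposite in the melanocytic lines, with a rise of 2.54 in WM164 and a fall of 0.96 in SKMel28 (SE 0.06), and it rose by 0.79 in A375 (SE 0.10). PRDM7 fell by 0.61 in SKMel28 (SE 0.07), a difference of -2.85 (SE 0.15) from WM164. MAFG itself differed by 0.41 between WM164 and SKMel28 (SE 0.20, adjusted p = 0.221) and by 0.23 between WM164 and A375 (SE 0.20, adjusted p = 0.597), and its own log2 fold change was 0.64 in SKMel28 (adjusted p = 1.28e-04) and 0.80 in A375 (adjusted p = 0.0655). Collagen chains had 8 calls higher and 2 lower of 24 tested in SKMel28 and 2 higher and 0 lower of 23 in A375. Over all tested genes 1.76% were called higher and 2.98% lower in SKMel28, and 0.646% and 0.019% in A375. Nuclear-encoded respiratory chain genes had medians of 0.05 in SKMel28 and 0.02 in A375.

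**Figure D5:**
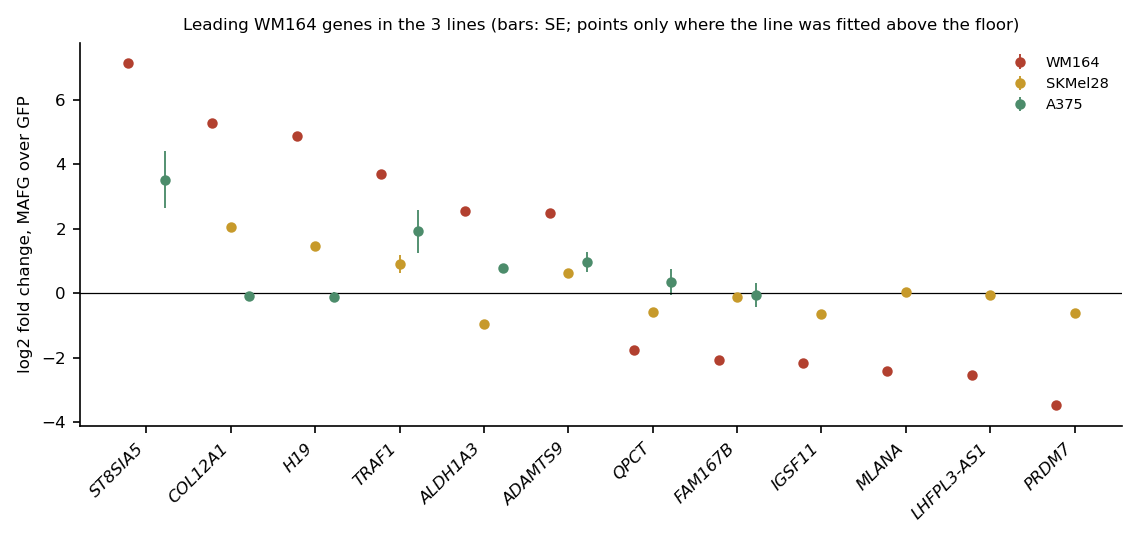
Log2 fold change of MAFG over GFP with SE bars for the 12 leading WM164 genes in the 3 lines, each from its own fit, with points left out where a line had no more than 3 counts in any library or the gene was not tested. ALDH1A3 is the gene that is above 0 in WM164 and A375 and below 0 in SKMel28, and the lower WM164 genes lie between -0.65 and 0.04 in SKMel28.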

How the data were processed

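RNA from WM164 cells overexpressing MAFG or GFP (3 libraries each) was sequenced by the authors. The submitters' processing notes name cutadapt 1.8.1, STAR 2.7.7a, RSEM 1.3.0, DESeq2 and GRCh38. The labels describe a non-stranded library kit and the study's methods a strand-specific one, and the strand setting of the counting is not given in the sources used here. The deposited gene counts are raw, and the deposited TPM values were scaled for gene length and depth by the authors. No column of the authors' own comparisons was used.

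Symbols and positions came from GENCODE v44, which matched 99.3% of the identifiers. Counts of the 6 libraries were tested with edgeR 4.0.16 (TMM scaling, filterByExpr, quasi-likelihood F test, R 4.3.3), with Benjamini-Hochberg adjustment over 15919 genes. The SE is the log2 fold change divided by the root of F. Where a condition had 3 counts or fewer in every library, a bound against 3 counts per library is given in place of the fitted fold. Depth was 26910220 to 34848421 counts. A bound is the mean CPM of the other condition divided by the CPM of 3 counts per library, and it takes no account of counting error. An exact permutation test of 3 against 3 libraries cannot go below p = 0.1, so none was used. TPM, which corrects for length, served to compare levels between genes.

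The 47 gene lists and their members were chosen with earlier results of these data known. By rule, the text names MAFG and the 2 called members of each list and direction with the largest change (5 in lists of 150 or more tested members). These members needed libraries that were apart and a mean that reached 1 CPM. It also names each list's most abundant member per length and, in lists without a call, the member with the smallest adjusted p. Last come the 6 called genes of smallest adjusted p in each direction, also only if the libraries were apart. Where lists held many, only part of these are named, some genes are not reported here, and other genes are marked as chosen after their values were seen. Differences between lines were contrasts in 1 model of 18 libraries. Alternatives were DESeq2 1.42.0, its size factors, other count filters, limma 3.58.1 on log2(TPM + 1) and log2(TPM + 0.1), all 18 libraries, no fold limit, a replicate block and each library left out. The code was tested on simulated data, and figures were drawn with matplotlib 3.10.9.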

Additional observations from a re-analysis of the deposited data

Results flagged for a closer look

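The responses of leading genes in WM164 differed from those in the other lines by the test of the difference itself in the model of all 18 libraries (edgeR, adjusted p of 0.05 or less and more than 2-fold), which is what brings them here. On the log2 scale and with the other line subtracted from WM164, COL12A1 differed by 3.25 from SKMel28 and 5.39 from A375, H19 by 3.39 and 4.96, ALDH1A3 by 3.5 and 1.74, TRAF1 by 2.76 and 1.78 and ADAMTS9 by 1.86 and 1.52. ST8SIA5 differed by 3.61 from A375 (SE 0.89, adjusted p = 0.0131). In the edgeR fit of A375 alone its change was 3.51 (SE 0.88, adjusted p = 0.16), and that of TRAF1 1.91 (SE 0.66, adjusted p = 0.483). In that of SKMel28 alone TRAF1 rose by 0.90 (SE 0.28, adjusted p = 0.0241). Among genes that fell in WM164, FAM167B differed by -1.97 from SKMel28 and -2.04 from A375, and QPCT by -1.18 and -2.09. Against SKMel28 alone, MLANA differed by -2.44, PRDM7 by -2.85, LHFPL3-AS1 by -2.46 and IGSF11 by -1.52. The genes were chosen on their WM164 values, so these sizes are not independent of the choice. Over all genes, 957 responses differed from SKMel28 and 823 from A375.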

How the results depend on the processing

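The called genes numbered 1105 (786 higher, 319 lower) and were 1051 to 1103 with each library left out (higher 724 to 824, lower 279 to 327) and 1149 with DESeq2. They were 734 with at least 10 counts in every library (493 higher), 384 with limma on log2(TPM + 1) (314 higher, 70 lower), 356 without a filter on TPM (293, 63), 617 on log2(TPM + 0.1) (500, 117) and 5065 without a fold limit (2580, 2485). Calls in the gene lists, 267, were 139 on log2(TPM + 0.1), 94 on log2(TPM + 1), 92 without its filter and 859 without a fold limit. Genes whose response differed from SKMel28 were 957, or 5.10% of those tested, and 510 (4.28%) with at least 10 counts and 2573 (13.7%) without a fold limit. Those differing from A375 were 823 (4.39%), and came to 3.15% with at least 10 counts, 2.93% on log2(TPM + 1) and 9.21% without a fold limit. With each library left out, the log2 fold change of MAFG was 0.96 to 1.12, its call was lost without GFP replicate 3 (0.96) or MAFG replicate 1 (1.0), and the other counts were 839 to 876 (SKMel28), 692 to 738 (A375) and 254 to 270 (lists). No named gene with an adjusted p up to 0.05 reversed its direction in another setting. Named genes above that limit were not followed across settings. Among these, VIM stood at 4918 and 4526 CPM but at 1713 and 1784 TPM with GFP and MAFG. On log2(TPM + 1), ribosomal protein genes with an adjusted p up to 0.05 turned from 12 lower and 3 higher to 0 and 5. Medians of several gene families changed sign, as given with them. The replicate numbers do not pair the samples (correlations of same-numbered deviations -0.0331, 0.0302 and 0.0106), and a fit with the replicate block called 1056 genes. Of 122 named called genes 112 kept the call with each library left out and 45 in every setting that tested them, with 22 lost on log2(TPM + 1), 76 without its filter and 8 with all 18 libraries. Larger pseudocounts shrink the changes of low genes by construction. The cause of the other shifts was not tested.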
